A study of Saccharomyces cerevisiae with 2 samples.

Results

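The 47 genes described here encode the machinery that moves newly made proteins into the endoplasmic reticulum (ER) and carries them in vesicles between the ER and the Golgi apparatus. They were listed by gene symbol for their roles, with earlier results of these data known, and all 47 were found among the 5656 genes that the array annotation names. The values come from 2 *sdh3*Δ samples of *Saccharomyces cerevisiae*. The strain lacks *SDH3*, the gene of the cytochrome b subunit by which succinate dehydrogenase sits in the inner mitochondrial membrane, and was made in a uracil-requiring Mat a strain of the CENPK family with *URA3* of *Kluyveromyces lactis* as the selection marker. Both samples come from aerobic batches grown in minimal medium with uracil and were taken when 20 g/liter of glucose remained. Precultures were started from a single colony, and the paper reports cultivations in at least triplicate. It does not state whether the duplicate samples came from separate cultures, so the spread between them may be technical. The samples form 1 group. Arrays of the reference strain were not analysed here, so nothing below compares the mutant with a strain that has *SDH3*, and no p-value is given. What the data give is the level of each gene in both replicates and how far the replicates stood apart.

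In yeast, many secreted and membrane proteins are recognized while still being translated by the signal recognition particle, which brings the ribosome to the Sec61 channel in the ER membrane. Others reach the channel after translation with the help of Sec62 and Sec63. Vesicles coated with COPII then carry proteins from the ER towards the Golgi, and vesicles coated with COPI return escaped proteins and receptors to the ER. The TRAPP complexes and the small GTPase Ypt1 direct the arriving vesicles to the Golgi, where SNARE proteins fuse the membranes.

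*SDH3* had intensities of 22.0 in replicate 1 and 29.3 in replicate 2, a mean of 25.6 ± 5.16 (SD, n = 2), as a check of the label. An intensity is the brightness that the authors computed for a probe set, a group of short probes for 1 transcript, on a linear scale. A value was called above background when it exceeded the highest of 19 control probe sets for bacterial and mouse genes. This limit was 54.8 on array 1 and 92.1 on array 2, and *SDH3* lay below it on both. Of the 5656 named genes, 1505 were above background on neither array, so the low value of *SDH3* is a weak check. All 19 control probe sets were brighter in replicate 2, with a median of 29.8 in replicate 1 and of 47.0 in replicate 2. Pearson's correlation of log2 intensities between the arrays was 0.91 across 9324 probe sets, which do not count as replicates, and the log2 ratio between them had an SD of 0.71. The ratio of the 3' to the 5' control probe set, a sign of RNA quality, was 1.02 in replicate 1 and 1.13 in replicate 2 for *ACT1* (actin). It was 1.03 and 0.93 for *SPT15* (TATA-binding protein), whose replicate 2 values were not above background. For *SRB4* (Mediator) it was 2.74 and 1.17, with the 5' value below background in both replicates and the 3' value in replicate 2.

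Most of the 47 genes had the higher intensity in replicate 1. This held for 39 genes, or 83.0%, against 55.9% of all named genes. Their median log2 ratio of replicate 1 over replicate 2 was 0.90, against 0.12 over all named genes. The ratio exceeded 2-fold in 21 genes, or 44.7%, against 16.7% of all named genes. It did so in 19 genes towards replicate 1, which is 40.4% of them, where the share over all named genes was 12.6%. It exceeded 2-fold towards replicate 2 in 2 genes, *SEC61* and *ERV46*, or 4.26% against 4.17% of all named genes. With the ratio centred on the median of all named genes within 10 bins of mean intensity, neither of these 2 exceeded 2-fold, at -0.83 and -0.65. That centring put 20 genes past 2-fold towards replicate 1. It brought *SFB3*, *EMP24*, *ERV29*, *ARF1* and *YPT1* past 2-fold, and *SEC63*, *SRP72*, *BET3* and *BOS1* within it. On the values as given, the remaining 26 genes lay within 2-fold. The replicates are 1 sample each, so these shares describe 2 arrays and carry no test. Nearest to the 2-fold line were *COP1* and *SRP72* just outside it, with log2 ratios of 1.01 and 1.03, and *SFB3* and *SRP21* just inside it, with 0.995 and 0.98.

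**Figure D1:**
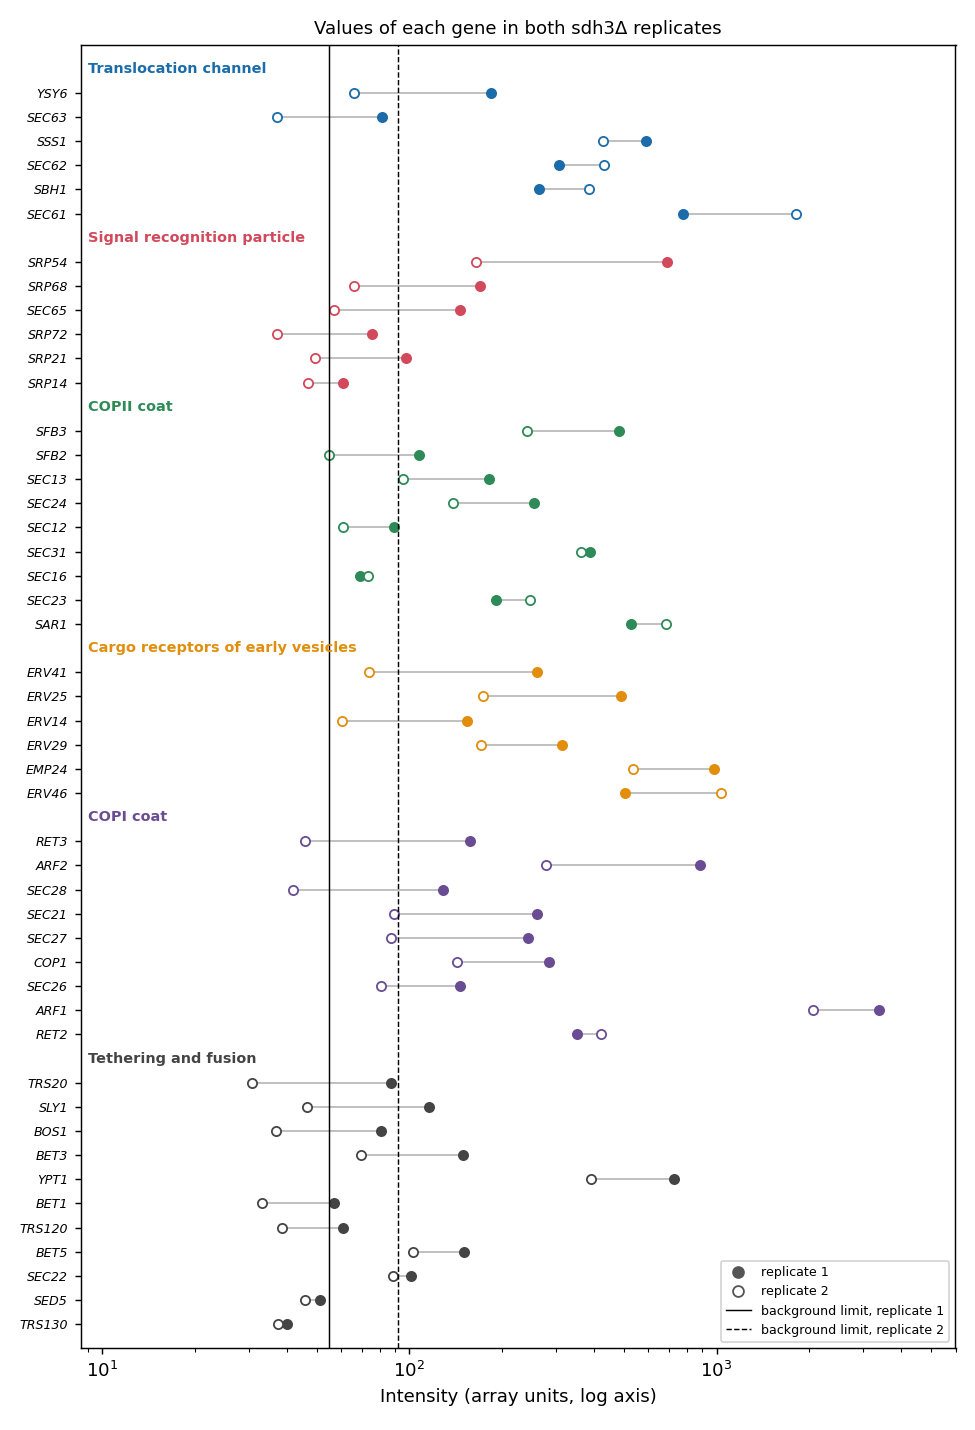
Intensity of each of the 47 genes (log axis, array units), with replicate 1 as filled and replicate 2 as open circles, by role and ordered by the ratio within each role. The lines mark the background limits of 54.8 (replicate 1) and 92.1 (replicate 2). In 39 genes the filled circle lies to the right, and 24 genes have an open circle below the limit of replicate 2 while the filled circle is above that of replicate 1.

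Many of these differences were limited by background. Of the 47 genes, 45 were above background in replicate 1 and 21 in replicate 2, while among all named genes 73.2% were above it in replicate 1 and 40.2% in replicate 2. All 21 were above it in both, which is 44.7% of the genes against 40.0% of all named genes. Of the 19 genes past 2-fold towards replicate 1, 15 were not above background in replicate 2, so that their ratio is at most a bound. The bound sets the value in replicate 1 against the limit of 92.1. *SEC63*, *SRP72*, *TRS20* and *BOS1* were past 2-fold but gave no bound above 1. Of the 24 genes measured in replicate 1 alone, which include genes within 2-fold, 15 had a bound above 1, at 1.06-fold to 2.83-fold. With values below background raised to the limit of their array, 7 genes exceeded 2-fold towards replicate 1 and 2 towards replicate 2, against 5.59% and 3.94% of all named genes. The 7 were *SRP54*, *ERV25*, *ARF2* and *COP1*, measured in both replicates, and *ERV41*, *SEC21* and *SEC27*, with a bound. Raising the values moved the median of all named genes to -0.48, and that of the 47 genes to 0.47.

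In the 21 genes above background in both replicates, 4 exceeded 2-fold towards replicate 1 and 2 towards replicate 2. Among all named genes of that kind the shares were 9.56% and 9.82%. The median log2 ratio of the 21 was 0.71, while that of the 2260 named genes above background in both was -0.24. The ratio over all genes varied with level: in 10 bins of equal size by mean log2 intensity, its median was 0.29 in bin 3 and -0.39 in bin 10, which holds the brightest genes. In bin 10 there were 8 of the 47 genes, with a median of 0.59. In all bins together, 38 of the 47 genes had a ratio above the median of their bin.

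**Figure D2:**
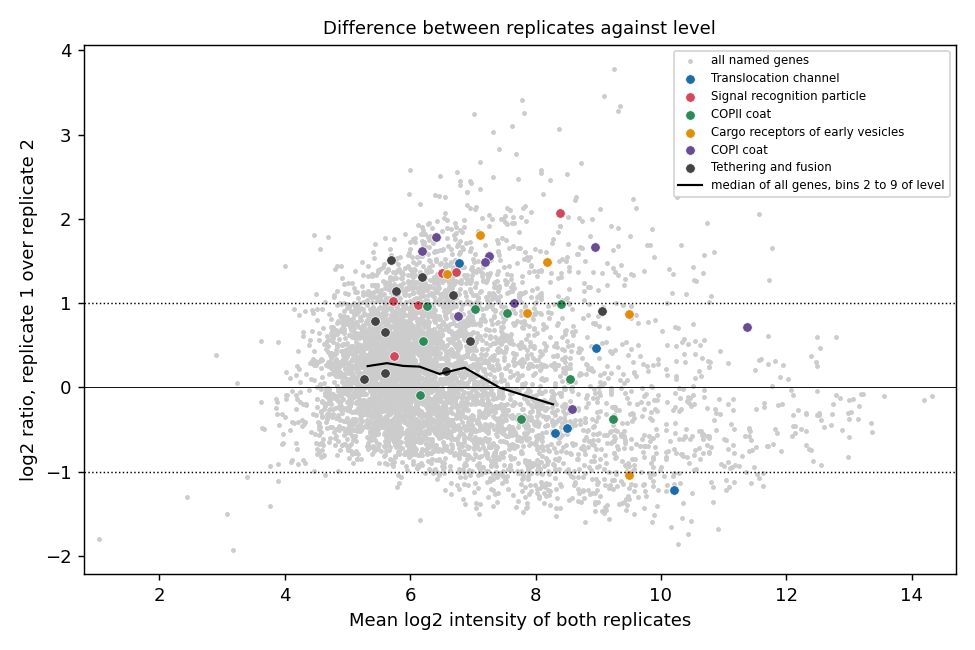
Log2 ratio of replicate 1 over replicate 2 against the mean log2 intensity of both replicates, for all 5656 named genes (grey) and for the 47 genes, coloured by role. The black line joins the medians of all named genes in bins 2 to 9 of level, and the dotted lines mark 2-fold. Of the 47 genes, 38 lie above the median of their bin.

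The genes grouped with the channel of the ER membrane showed both directions, with a median log2 ratio of -0.01 over 6 genes. With values raised to background this median was -0.33, against -0.48 over all named genes. *SEC61*, which encodes the pore-forming subunit of the channel, had an intensity of 778 in replicate 1 and of 1815 in replicate 2, a mean of 1296 ± 733 (SD, n = 2). Its log2 ratio of -1.22, or -0.83 against the median of its bin of level, was lower than that of all but 1.66% of the named genes. *SBH1*, the beta subunit of the same channel, had 264 and 384, and *SSS1*, its gamma subunit, had 590 and 427. The 3 subunits of the channel thus did not share a direction, and the log2 ratio of *SEC61* was 1.69 below that of *SSS1* (difference -1.69). *SEC62* and *SEC63* encode membrane proteins that work with the channel in post-translational import. *SEC62* had 308 in replicate 1 and 429 in replicate 2. *SEC63*, whose protein carries a J domain that engages the lumenal chaperone Kar2, had 81.4 and 37.2 and was not above background in replicate 2. *YSY6*, which encodes a small tail-anchored protein of the ER membrane, had 184 in replicate 1 and 66.2 in replicate 2, where it was not above background, and was higher in replicate 1 by at least 1.996-fold. *SEC61*, *SBH1*, *SSS1* and *SEC62* were above background in both replicates.

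All 6 genes of the signal recognition particle had the higher intensity in replicate 1, against 55.9% of all named genes, with a median log2 ratio of 1.19. In 4 of them the ratio exceeded 2-fold towards replicate 1, where the share over all named genes was 12.6%. *SRP54*, the GTPase that binds the signal sequence, had 691 in replicate 1 and 165 in replicate 2, a mean of 428 ± 372 (SD, n = 2). It was the one gene of the particle above background in both, and its log2 ratio of 2.07 was the largest of the 47 genes and above that of 99.1% of the named genes. *SRP68*, which encodes a subunit of the particle, had 170 and 65.8, and was at least 1.85-fold higher in replicate 1. *SEC65*, the homologue of mammalian SRP19, had 146 and 57.0, with a bound of 1.59-fold. *SRP21* had 97.7 and 49.5, with a bound of 1.06-fold. *SRP72*, with 75.6 and 37.2, and *SRP14*, with 60.6 and 46.9, gave no bound above 1. For 5 of the 6 genes, replicate 2 thus gave no level above background. With values raised to background, the median of the group was 0.38.

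No gene of the COPII coat differed by 2-fold on the values as given, where the share over all named genes was 16.7%. Whether the 9 genes depart from that share was not tested. *SFB3* lay nearest to the line, and it passed 2-fold towards replicate 1 with the ratio centred within 10 bins of mean intensity. The median log2 ratio of the 9 genes was 0.55, or 0.10 with values raised to background, and they ranged from -0.38 to 0.995. Sar1 is the GTPase that starts the coat, and *SAR1* had an intensity of 527 in replicate 1 and of 683 in replicate 2. *SEC12*, its exchange factor in the ER membrane, had 88.8 and 60.7 and was not above background in replicate 2. Sec23 and Sec24 form the inner coat, in which Sec24 binds cargo. *SEC23* had 191 and 247, and *SEC24* had 254 and 138. The ratio of *SEC23* was thus below 0 and that of *SEC24* above it, with log2 values of -0.37 and 0.88. *SFB2* and *SFB3* encode relatives of Sec24. *SFB3* had 480 in replicate 1 and 241 in replicate 2. *SFB2* had 107 and 54.8, the second not above background, with a bound of 1.17-fold. All 3 genes of the Sec24 family had the higher value in replicate 1, as had 83.0% of the 47 genes and 55.9% of all named genes. Of the outer coat, *SEC31* had 387 in replicate 1 and 361 in replicate 2, with a log2 ratio of 0.10, and *SEC13*, whose protein is also part of the nuclear pore, had 182 and 95.5. *SEC16*, a scaffold of ER exit sites, had 68.8 and 73.3 as the average of 2 plain probe sets. These probe sets disagreed in level: one had 119 and 118, above background in both replicates, and the other 40.0 and 45.7, below it in both. By their average, *SEC16* counted as above background in replicate 1 alone, which neither plain probe set showed by itself. The annotation gives *SEC16* 7 further probe sets of other kinds, with log2 ratios from -0.52 to 0.76.

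The 6 genes for cargo receptors had a median log2 ratio of 1.12, and the 2 subunits of one receptor went in opposite directions. Erv41 and Erv46 form a complex that cycles between the ER and the Golgi and retrieves ER proteins. *ERV46* had an intensity of 504 in replicate 1 and of 1034 in replicate 2, a mean of 769 ± 375 (SD, n = 2) and a log2 ratio of -1.04, or -0.65 against the median of its bin of level. *ERV41* had 260 in replicate 1 and 74.0 in replicate 2, where it was not above background, and was at least 2.82-fold higher in replicate 1. The p24 proteins Emp24 and Erv25, which also work as a complex, had genes that were both higher in replicate 1. *EMP24* had 979 and 535, and *ERV25* had 487 and 173, with log2 ratios of 0.87 and 1.49. *ERV29*, the receptor for soluble cargo such as pro-alpha-factor, had 315 in replicate 1 and 171 in replicate 2. *ERV14*, a receptor for many membrane proteins, had 154 and 60.5, with a bound of 1.68-fold.

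Of the 9 genes of the COPI coat, 8 had the higher value in replicate 1, against 55.9% of all named genes. Past 2-fold towards replicate 1 were 6 of the 9, where the share over all named genes was 12.6%. The median log2 ratio of the 9 genes was 1.49 on the values as given. It was 0.78 with values raised to background, where that of the cargo receptors was 0.88. *SEC21*, the gamma subunit of the coat, had an intensity of 261 in replicate 1 and of 88.8 in replicate 2, and *SEC27*, the beta' subunit, had 244 and 86.9. Neither was above background in replicate 2, and both were higher in replicate 1, by at least 2.83-fold and 2.65-fold. *COP1*, the alpha subunit, had 286 and 142 and was above background in both. *RET3*, the zeta subunit, had 158 in replicate 1 and 45.7 in replicate 2, with a bound of 1.72-fold. For *SEC28*, the epsilon subunit, the values were 128 and 41.8, with a bound of 1.39-fold, and for *SEC26*, the beta subunit, 146 and 80.9, with a bound of 1.59-fold. The delta subunit gene *RET2* was the exception, with 353 in replicate 1 and 420 in replicate 2, a mean of 386 ± 47.3 (SD, n = 2). Its log2 ratio was -0.25. Arf1 and Arf2 are closely related GTPases that recruit the coat to Golgi membranes. *ARF1* had 3381 in replicate 1 and 2062 in replicate 2, and *ARF2* had 880 and 278, with log2 ratios of 0.71 and 1.66. Since the transcripts of these 2 genes are similar, a probe set for one may also bind the other, and the single values are uncertain.

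All 11 genes of tethering and fusion had the higher value in replicate 1, against 55.9% of all named genes, but for 9 of them replicate 2 was not above background. The median log2 ratio of the 11 genes was 0.79. Past 2-fold towards replicate 1 were 4 of them, where the share over all named genes was 12.6%. None of these 4 was above background in replicate 2. With values raised to background, the median of the 11 genes was -0.08, since the limit is higher on array 2. That of all named genes was then -0.48. *YPT1*, the GTPase that recruits tethering factors, had an intensity of 730 in replicate 1 and of 391 in replicate 2, a mean of 560 ± 240 (SD, n = 2). *BET5*, of the TRAPP core, had 150 and 103, and with *YPT1* it was above background in both replicates. The core subunit gene *BET3* had 150 in replicate 1 and 69.8 in replicate 2, with a bound of 1.63-fold, and *TRS20* had 87.1 and 30.6, with no bound above 1. *TRS120* and *TRS130* encode the large subunits of TRAPP II. *TRS120* had 60.6 and 38.5. *TRS130* had 39.9 and 37.4 and was not above background in either replicate. Of the SNARE genes of vesicles between ER and Golgi, *BOS1* had 81.0 in replicate 1 and 36.7 in replicate 2, *BET1* had 56.9 and 33.0, and *SEC22* had 101 and 88.6. The Golgi SNARE gene *SED5* had 51.4 and 45.8, below background in both. *SLY1*, which encodes the Sec1/Munc18 protein that binds Sed5, had 116 in replicate 1 and 46.4 in replicate 2, with a bound of 1.26-fold.

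**Figure D3:**
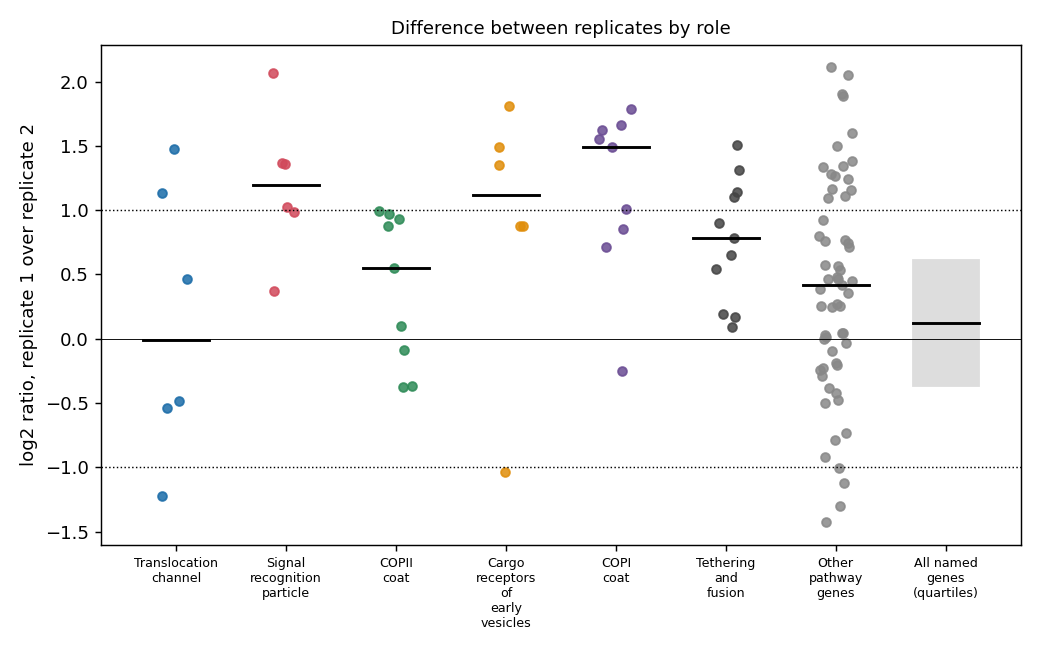
Log2 ratio of replicate 1 over replicate 2 for each gene, by role, with other genes of the same pathways and the quartiles of all 5656 named genes (grey box) at the right. The thick lines are medians and the dotted lines mark 2-fold. The medians of the roles run from -0.01 for the translocation channel to 1.49 for the COPI coat on the values as given, background not taken into account, and that of all named genes is 0.12.

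The 47 genes spanned coding lengths of 198 to 6588 bases in the R64 gene table, where lengths run from start to stop codon and include introns. Length and the log2 ratio showed almost no relation across these genes, which are not independent replicates. The Pearson correlation with log2 length was -0.08 and the Spearman correlation -0.09 (n = 47). In the 21 genes above background in both replicates they were -0.005 and 0.07. Over 5486 named protein-coding genes the values were 0.05 and 0.09. Short genes of the channel group illustrate the spread, since *YSY6*, *SSS1* and *SBH1*, of 198, 243 and 249 bases, had log2 ratios of 1.47, 0.47 and -0.54. The ratio of *YSY6* rests on a replicate 2 value that was not above background.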

How the data were processed

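Yeast Genome S98 arrays of 2 *sdh3*Δ samples were analysed. The deposited intensities are linear: scans had been scaled by the authors in Microarray Suite (MAS5 version 5 in the submitters' processing notes), normalized in dChip and summarised there to 1 value per probe set from the perfect match probes alone. The arrays hold 9335 probe sets, including 60 controls. The platform annotation gives 1 gene for 6504 and several for 328, of which 0 include any of the 47 genes. Probe sets with a value at or below 0 (11) were left out. Genes were named by gene ID through the R64 gene table (GCF_000146045.2), for 5656 genes. A gene's value was the mean log2 intensity of its plain probe sets (IDs ending in _at alone), or of the other kinds where it had no plain one. The log2 ratio of replicate 1 over replicate 2 was computed without further normalization.

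With 1 group of 2 samples there was no comparison between groups and no test. The number of arrays limits the precision. The reference strain values in the paper's supplement were not used here. The design named protein length, and gene length took its place. The scripts were tested on simulated data. Python 3.11.15, numpy 2.4.6, pandas 2.3.3, scipy 1.17.1 and matplotlib 3.10.9 were used. The members and lists were chosen with earlier results of these data known. Every one of the 47 genes is named, and of the other pathway genes those past 2-fold and above background on an array. Alternatives covered the fold, the centring, background and the choice of probe sets.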

Additional observations from a re-analysis of the deposited data

How the results depend on the processing

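No paired analysis was possible because the labels give 1 group. Of 30 alternatives, 21 kept the direction and came close to the main value. Close meant less than 0.53 for a median log2 ratio, the SD between replicates over all named genes. For a count it meant at most 1.5 times, and for a correlation less than 0.1. Several could hardly come out otherwise, so the 21 are no measure of stability. Centring on the median of all named genes takes 0.12 from every median log2 ratio, less than the 0.53 allowed. Averaging every kind of probe set changed only *SEC16* among the 47 genes. None of the 47 was above background in replicate 2 alone, so leaving out replicate 1 had to give 21. The count of 21 genes past 2-fold was 33 at 1.5-fold and 5 at 3-fold, 6 among the 21 genes above background in both replicates, and 9 with values raised to background. Centred on the median of all named genes it was 18, and centred within 10 bins of mean value it was 20, all higher in replicate 1, so that *SEC61* and *ERV46* were then within 2-fold. The median log2 ratio of the 47 genes lay between 0.47 and 0.87 under the 4 alternatives that changed it. With values raised to background, the median over all named genes was -0.48. It was 0.38 for the signal recognition particle, 0.78 for the COPI coat, 0.88 for the cargo receptors and 0.10 for the COPII coat. It was -0.33 for the channel and, with its direction turned, -0.081 for tethering and fusion. This follows from the limits, which are 54.8 on array 1 and 92.1 on array 2. The 21 genes above background in both replicates were 35 with the median control probe set as the limit, and leaving out 1 replicate gave 21 to 45. The ratio and its count could not be computed with a replicate left out, since they need both.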

Other observations

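Other genes of the same pathways also had the higher intensity in replicate 1 more often than in replicate 2. Of 61 names listed, 59 were matched by symbol, and 40 of these, or 67.8%, were higher in replicate 1, against 55.9% of all named genes. The median log2 ratio was 0.42, against 0.12 over all named genes. Higher in replicate 1 were 13 of 16 genes of translocation, 7 of 10 of cargo receptors and 14 of 21 of tethering and fusion. Of vesicle coats and their GTPase regulators it was 6 of 12, or 50%, with a median log2 ratio of 0.13. Of the 59 genes, 16 were past 2-fold towards replicate 1 and 4 towards replicate 2, against 12.6% and 4.17% of all named genes. Background limited this count too: 28 of the 59 were above it in both replicates and 22 in replicate 1 alone. Among the 16, only *KAR2*, *YKT6*, *SEC7* and *GET3* were above background in both replicates, as were all 4 towards replicate 2. *KAR2*, the main Hsp70 chaperone of the ER lumen, had 1190 in replicate 1 and 471 in replicate 2. *YKT6*, a lipid-anchored SNARE gene, had 403 and 93.3, the second just above the limit of 92.1. *RER1*, which encodes a receptor that returns membrane proteins to the ER, had 313 and 75.5, with a bound of 3.40-fold. *SEC7*, an Arf exchange factor of the Golgi, had 272 in replicate 1 and 104 in replicate 2, and *GET3*, the ATPase that delivers tail-anchored proteins, had 319 and 148.

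In the other direction, *TRS23*, a TRAPP core subunit, had 143 in replicate 1 and 383 in replicate 2. *GRH1*, of an early Golgi tether, had 145 and 357, *GET2*, of the receptor for tail-anchored proteins, 348 and 755, and the Golgi SNARE gene *GOS1* 168 and 338. All 4 were above background in both replicates. Measured above background in replicate 1 alone, and higher there by at least 1.11-fold to 2.02-fold, were *SEC66* and *SEC72* of translocation, *GLO3* of the COPI cycle, *ERV15* and *ERD2* among receptors, and *TRS33* and *SFT1* of tethering and fusion. For *LHS1*, *ERP3*, *COG4* and the gene of the beta subunit of the signal recognition particle receptor, replicate 1 was below the limit of array 2, and no bound is given.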
